A study of Mus musculus with 6 samples.

Results

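Of the 16022 gene symbols measured in these libraries, 31 genes of erythroid priming and heme synthesis are described here. They were taken by symbol from a list drawn up with earlier results of these data known. RNA libraries were sequenced from LSK cells of mouse bone marrow, a sorted fraction without lineage markers, high in Sca-1 and positive for c-kit, which holds blood stem cells and their first progeny. They comprised 3 libraries from HDAC6 knockout mice (KO1, KO2 and KO3) and 3 libraries from wild-type mice (WT1, WT2 and WT3). HDAC6 is a mainly cytoplasmic deacetylase, and the design holds this 1 comparison. No treatment is given for either group. The labels name neither the allele and the part of the gene removed nor the age, sex and strain of the mice. Whether each library stands for a mouse of its own is not stated either, and p-values then reflect only variation among these libraries, which may be technical.

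Red cells arise from stem cells through progenitors shared with megakaryocytes, basophils and mast cells. In that passage GATA1 and its cofactor FOG1 bring in KLF1, the erythropoietin receptor and iron uptake, and only later do heme enzymes and globins come to dominate the RNA. Heme is built by a chain of enzymes that starts and ends in mitochondria, from ALAS, which makes aminolevulinic acid, to ferrochelatase, which inserts the iron. LSK cells stand before most of this, and transcripts of the erythroid program found in them are often called priming.

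Levels are counts scaled to library size with TMM factors (CPM), and the test was edgeR's quasi-likelihood test over all 12875 genes that passed a filter on low counts, with a Benjamini-Hochberg adjusted p of 0.05 as threshold. Library totals ran from 25993971 to 28743672 counts, so a gene with no count could lie at up to 0.106 to 0.114 CPM (3 counts), a limit for counting error only. Hdac6 itself measured 9.62, 7.69 and 11.3 CPM in KO1, KO2 and KO3, against 68.0, 58.2 and 54.3 CPM in WT1, WT2 and WT3. It was the 1 gene past the threshold (log2 fold change -2.66, SE 0.19, edgeR adjusted p = 0.000594), which is 0.00777% of genes tested. All 9 LSK markers were detected, among them Kit at 724.8 to 1081.7 CPM in KO and 1127.3 to 1366.8 CPM in WT libraries. Ly6a, the gene of Sca-1, went the other way, at 82.07 to 119.3 CPM in KO and 60.28 to 68.74 CPM in WT libraries. Of the 9, 3 had a positive log2 fold change (KO over WT). Markers of mature neutrophils, with Mmp9 and Retnlg at 0 in some libraries, summed to 12.7 to 29.3 CPM in KO and 41.4 to 110 CPM in WT libraries. Those of macrophages summed to 67.5 to 117 CPM in KO and 84.5 to 129 CPM in WT libraries, and those of B cells to 61.9 to 84.3 CPM in KO and 54.1 to 74.8 CPM in WT libraries. In bulk RNA, fewer cells of a type and less RNA per cell cannot be told apart.

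Promoters of 4 early erythroid genes are shown first, whose transcripts varied together across the libraries and whose windows hold the motif marked below. They are Klf1, Epor, Ermap and Rhd, chosen after their values were seen. Each sequence is the 250 bases before the RefSeq start site in GRCm38.p6, a build older than the GRCm39 that the submitters' processing notes name, read 5′ to 3′ on the gene's strand. Capitals mark AGATAA or TGATAA, forms of the GATA factor motif, searched on both strands, so that TTATCT and TTATCA are the same motif read on the other strand. The Klf1 window is chr8:84901732-84901981 on the plus strand, that of Epor is chr9:21963577-21963826 on the minus strand, that of Ermap is chr4:119189996-119190245 on the minus strand, and that of Rhd is chr4:134864286-134864535 on the plus strand.
Klf1: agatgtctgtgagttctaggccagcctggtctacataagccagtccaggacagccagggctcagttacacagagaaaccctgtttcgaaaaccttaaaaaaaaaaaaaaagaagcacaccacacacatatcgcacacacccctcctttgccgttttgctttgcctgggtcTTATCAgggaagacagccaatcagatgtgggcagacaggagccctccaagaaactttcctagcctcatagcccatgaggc
Epor: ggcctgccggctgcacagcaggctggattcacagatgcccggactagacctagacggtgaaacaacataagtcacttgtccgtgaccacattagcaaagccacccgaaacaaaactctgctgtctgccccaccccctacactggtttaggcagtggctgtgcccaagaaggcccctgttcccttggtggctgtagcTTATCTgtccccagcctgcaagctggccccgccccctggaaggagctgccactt
Ermap: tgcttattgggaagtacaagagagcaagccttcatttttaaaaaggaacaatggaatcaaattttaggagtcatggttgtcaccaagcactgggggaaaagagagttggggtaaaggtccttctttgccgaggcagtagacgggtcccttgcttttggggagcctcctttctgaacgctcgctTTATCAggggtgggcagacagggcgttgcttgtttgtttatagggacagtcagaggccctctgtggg
Rhd: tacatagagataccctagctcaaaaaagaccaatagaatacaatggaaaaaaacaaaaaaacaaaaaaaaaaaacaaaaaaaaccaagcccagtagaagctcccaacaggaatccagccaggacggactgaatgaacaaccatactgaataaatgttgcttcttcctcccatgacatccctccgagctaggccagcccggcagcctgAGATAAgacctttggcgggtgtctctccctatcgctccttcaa
Each window holds 1 match, beginning 80 bases before the start in Klf1, 54 in Epor, 67 in Ermap and 43 in Rhd. Other genes that varied in the same way had windows without a match, namely Gata1, Aqp1, Blvrb, Add2, Trib2 and Mt2. Of the 31 genes, 26 had a promoter in the RefSeq table, with 34 windows in all. Those without an entry were Car1, Car2, Slc4a1, Nfe2 and Fech. The motif stood in 13 of the 34 windows (38.2%), against 5452 of 32851 windows over all genes (16.6%). A match describes these letters and is not a measured binding site.

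Across all 31 genes the comparison gave 0 calls by edgeR. Slc4a1 and Alas2 did not pass the filter on low counts, and 29 genes were tested. Of these, 18 had a positive log2 fold change (KO over WT), with a median of 0.23, against 49.5% positive and a median of 0.00 over all genes tested. At an unadjusted p under 0.05 there were 10 of 29 (34.5%), against 13.4% of all genes tested. That count was 2 without KO2, 4 without WT2, 6 without KO3 or WT1, 10 without WT3 and 12 without KO1. The share of all genes at that level was not taken without a library, so these counts lack a background. Of the 10 with all libraries, 6 were higher in KO (Tfrc, Mt1, Car1, Ermap, Sphk1 and Rhd) and 4 were lower (Nfe2, Hba-a2, Hbb-bt and Car2). DESeq2 called Tfrc and Car1 higher, where it called 0.897% of genes higher, and limma-voom called 0. Every KO library lay above every WT library in 3 of the 29 genes, against 8.86% of all genes tested. Every KO library lay below every WT library in 3 of the 29, against 9.7% of all genes tested. Described by role, with no test between roles, the median log2 fold change was 0.78 for membrane and transporter genes, 0.59 for other progenitor genes, 0.21 for regulators, 0.06 for heme enzymes and -0.88 for globins. The globin median was -0.20 without WT1, with 2 of 4 positive, and -1.46 without KO3. With a library left out, membrane and transporter genes ran from 0.54 (without KO3) to 0.94 (without KO1). Other progenitor genes ran from 0.42 (without KO3) to 0.96 (without WT1), and regulators from 0.14 (without WT1) to 0.34 (without WT3). The heme enzyme median stayed between 0.03 and 0.10 with any library left out.

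**Figure D1:**
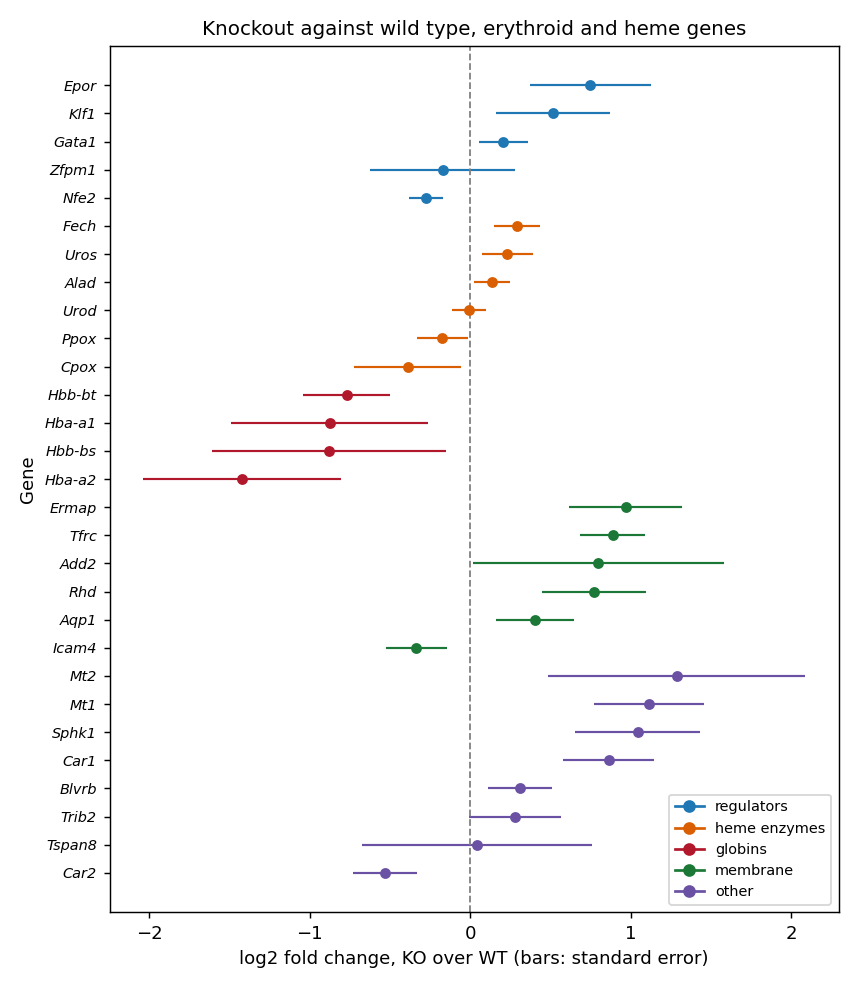
Log2 fold change of KO over WT on the x axis for the 29 tested genes on the y axis, coloured by role, with bars of 1 standard error and a dashed line at 0. The 4 globins lie at -0.77 to -1.42, heme enzymes at -0.39 to 0.29, and most membrane and progenitor genes to the right of 0.

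The most frequent arrangement was a high level in KO2 and KO3 alone. In 13 of the 29 tested genes (44.8%) KO2 and KO3 both lay above every WT library while KO1 did not, an arrangement found in 3.39% of all genes tested. The 13 were Gata1, Klf1, Epor, Ermap, Rhd, Aqp1, Add2, Car1, Sphk1, Blvrb, Trib2, Uros and Mt2. With KO2 as the exception the count was 0 genes of the 29, against 2.63% of all genes, and with KO3 as the exception it was 1, Alad, against 11.7%. This arrangement was noticed in the values and then counted. Over all genes with enough counts, pairs of libraries were also compared by chi-square per degree of freedom, lower for more alike libraries. KO3 gave 34.2, 32.9 and 24.9 against WT1, WT2 and WT3, but 55.8 against KO1 and 51.5 against KO2. Pairs of WT libraries gave 33.8 to 37.9, and KO1 against KO2 gave 43.8. By that measure KO3 was nearer to the WT libraries than to the other KO libraries. In KO1 the mean deviation of the tested genes from their 6-library mean was -0.29 log2 units, below KO2 (0.22), KO3 (0.33) and every WT library (-0.25 to 0.03). Of the 12 genes with this arrangement that had a promoter window, 6 held the GATA motif, and so did 6 of the 14 other genes with one.

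**Figure D2:**
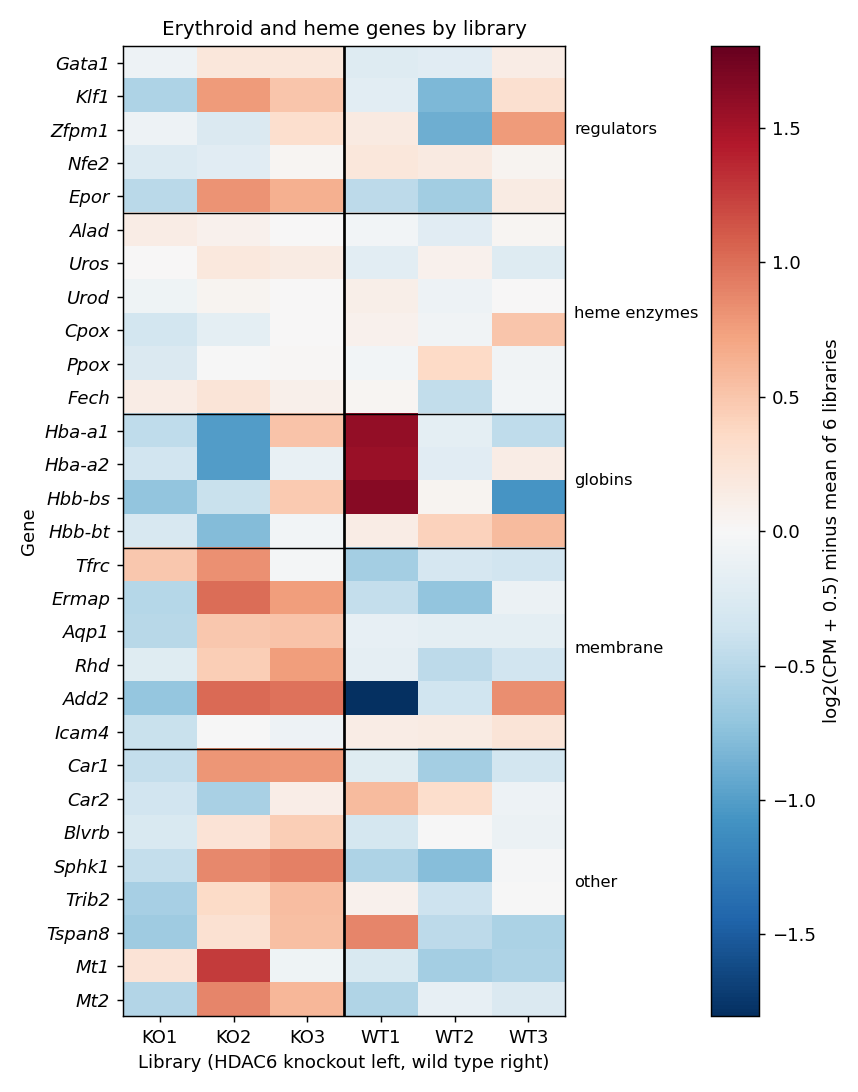
Heat map of log2(CPM + 0.5) minus the mean of the 6 libraries, with genes as rows grouped by role and libraries as columns, KO on the left and WT on the right. KO2 and KO3 are red for Klf1, Epor, Ermap, Car1 and Sphk1 where KO1 is blue, and WT1 is the reddest column for 3 of the 4 globins.

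Among regulators and the erythropoietin receptor, none passed the test, and Gata1, Klf1 and Epor had their highest levels in KO2 and KO3. Gata1, the zinc finger factor of erythroid, megakaryocyte and mast cells, measured 41.1, 50.7 and 50.7 CPM in KO1, KO2 and KO3, against 37.3, 38.1 and 48.1 CPM in WT1, WT2 and WT3. The groups overlapped, with KO1 below WT3 (log2 fold change 0.21, SE 0.16, edgeR adjusted p = 0.569). Klf1, the erythroid factor that binds CACCC boxes and activates adult beta globin, measured 17.9, 46.1 and 37.9 CPM in KO1, KO2 and KO3, against 23.4, 15.0 and 32.9 CPM in WT1, WT2 and WT3. KO1 lay between WT2 and WT1, and the log2 fold change was 0.52 (SE 0.36, edgeR adjusted p = 0.536). Epor, the receptor through which erythropoietin keeps erythroid progenitors alive, measured 5.58, 14.6 and 12.8 CPM in KO1, KO2 and KO3, against 5.64, 5.02 and 8.97 CPM in WT1, WT2 and WT3. KO1 sat with the lowest WT libraries, and the log2 fold change of 0.75 (SE 0.38) had an edgeR adjusted p of 0.408.

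The remaining regulators, Zfpm1 and Nfe2, had negative log2 fold changes. Zfpm1, which encodes FOG1, the GATA1 cofactor, measured 4.11, 3.59 and 5.58 CPM in KO1, KO2 and KO3, against 4.99, 2.16 and 7.84 CPM in WT1, WT2 and WT3. All KO values lay inside the WT range, and the sign of its log2 fold change (-0.17, SE 0.45) depended on WT3, being 0.31 without that library. Nfe2, the NF-E2 subunit used by megakaryocytes and erythroid cells, measured 382.8, 394.6 and 465.3 CPM in KO1, KO2 and KO3, against 523.9, 507.9 and 472.7 CPM in WT1, WT2 and WT3. Every KO library lay below every WT library, as in 9.7% of all genes tested, with KO3 and WT3 nearly touching (log2 fold change -0.28, SE 0.10, edgeR adjusted p = 0.331). Markers of megakaryocytes, a lineage that uses Nfe2 and Gata1 as well, summed to 581, 625 and 859 CPM in KO1, KO2 and KO3, against 1020, 1040 and 882 CPM in WT1, WT2 and WT3. All 12 were detected, 2 of the 11 tested had a positive log2 fold change, and their part in the Nfe2 values was not tested.

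**Figure D3:**
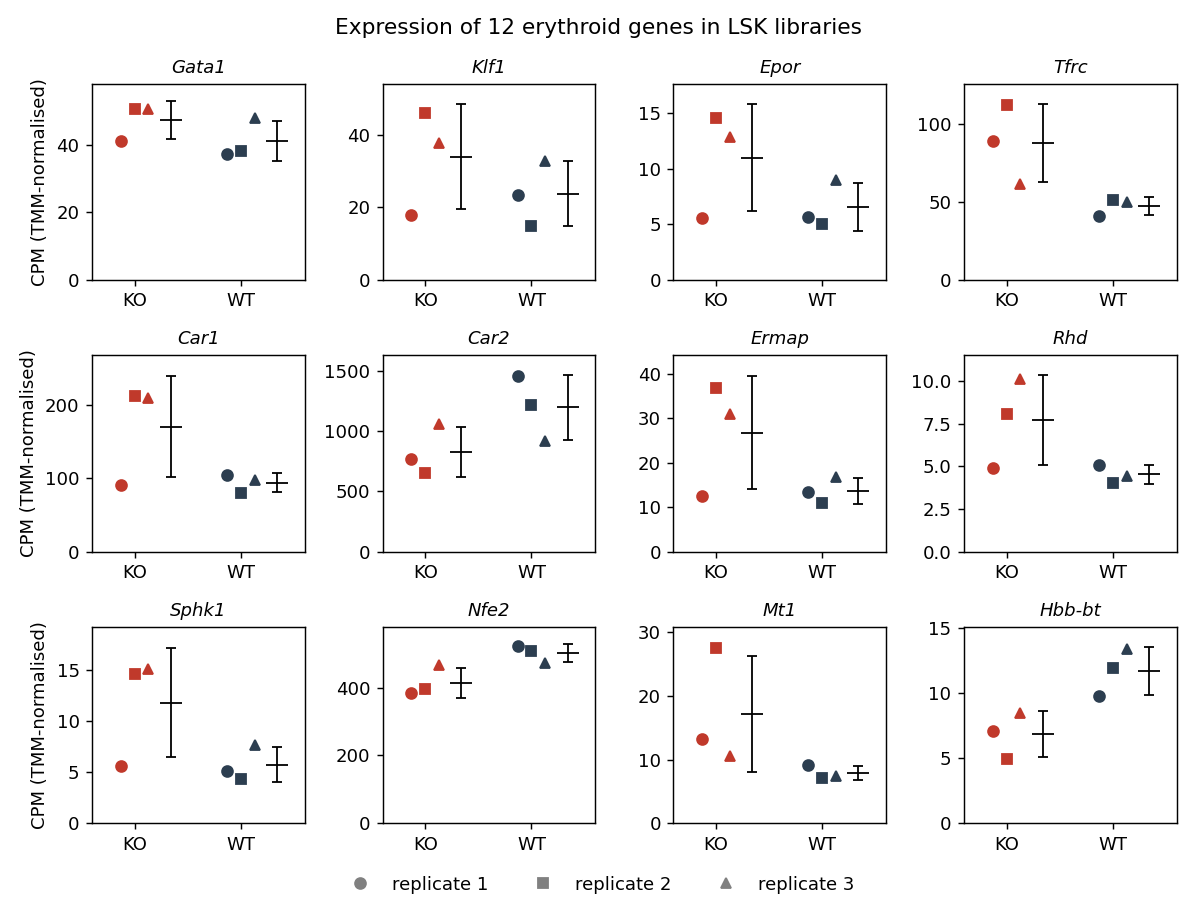
TMM-normalised CPM of 12 genes, with KO on the left and WT on the right of each panel, a symbol shape for each replicate number, and the mean with SD (n = 3) beside each group. The labels state no pairing of the groups by replicate number. KO1 (circle) stands apart from KO2 and KO3 in Klf1, Epor, Car1, Ermap, Rhd and Sphk1, while all KO symbols lie above WT in Tfrc and Mt1 and below it in Nfe2 and Hbb-bt.

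Membrane, transporter and blood group genes held the member with the smallest p. Tfrc, the transferrin receptor that brings iron into the cell, measured 89.1, 112.0 and 61.7 CPM in KO1, KO2 and KO3, against 41.0, 50.99 and 49.9 CPM in WT1, WT2 and WT3. Every KO library lay above every WT library, an order found in 8.86% of all genes tested, and the KO mean was 1.85 times that of WT. The log2 fold change of Tfrc was 0.89 (SE 0.20, edgeR adjusted p = 0.298), and it stood at rank 47 by p among the 12875 genes. DESeq2 called it (adjusted p = 0.00669). Without KO3, the lowest of the KO libraries, edgeR called it too (log2 fold change 1.09, adjusted p = 0.04), where it called 0.229% of genes higher. With any other single library left out edgeR did not call Tfrc (adjusted p = 0.246 to 0.744).

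Ermap, a membrane protein of red cells that carries the Scianna blood group in humans, measured 12.5, 36.8 and 30.9 CPM in KO1, KO2 and KO3, against 13.3, 10.9 and 16.8 CPM in WT1, WT2 and WT3. Rhd, the Rh blood group protein gene, measured 4.92, 8.08 and 10.1 CPM in KO1, KO2 and KO3, against 5.10, 4.03 and 4.43 CPM in WT1, WT2 and WT3. Aqp1, the water channel of the red cell membrane, measured 23.2, 46.0 and 47.0 CPM in KO1, KO2 and KO3, against 29.6, 29.1 and 29.2 CPM in WT1, WT2 and WT3. In all of these KO1 lay inside or below the WT range, and WT libraries were close together, most so for Aqp1. Their log2 fold changes were 0.97 (SE 0.35) for Ermap, 0.77 (SE 0.33) for Rhd and 0.40 (SE 0.24) for Aqp1, with edgeR adjusted p of 0.315, 0.356 and 0.477. Add2, beta adducin of the spectrin skeleton, measured 1.43, 5.87 and 5.66 CPM in KO1, KO2 and KO3, against 0.395, 1.94 and 5.11 CPM in WT1, WT2 and WT3. The spread among WT libraries was wide, and its log2 fold change was 0.80 (SE 0.78). Icam4, the Landsteiner-Wiener adhesion protein of erythroid cells, measured 12.4, 16.4 and 15.4 CPM in KO1, KO2 and KO3, against 18.02, 18.3 and 19.3 CPM in WT1, WT2 and WT3. Its KO libraries all lay below its WT libraries, as in 9.7% of all genes tested (log2 fold change -0.34, SE 0.19, edgeR adjusted p = 0.452). Slc4a1, band 3 of the mature red cell, had 7, 0 and 15 counts in KO1, KO2 and KO3, against 0, 16 and 0 counts in WT1, WT2 and WT3.

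Among other progenitor genes the carbonic anhydrases had log2 fold changes of opposite sign. Car1, an early erythroid carbonic anhydrase, measured 90.6, 211.6 and 209.1 CPM in KO1, KO2 and KO3, against 104.6, 79.2 and 97.0 CPM in WT1, WT2 and WT3. KO2 and KO3 were about equal and above all WT libraries, while KO1 lay between WT2 and WT3. The log2 fold change was 0.86 (SE 0.28, edgeR adjusted p = 0.309), and DESeq2 called it higher (adjusted p = 0.047). Without KO1, the lowest of the KO libraries, edgeR called Car1 (log2 fold change 1.17, adjusted p = 0.0463), the 1 gene it then called higher among 13205 (0.00757%). With any other single library left out edgeR did not call Car1 (adjusted p = 0.253 to 0.744). Car2, the carbonic anhydrase of red cells that many early progenitors also express, measured 770.0, 648.1 and 1058.8 CPM in KO1, KO2 and KO3, against 1452.7, 1216.8 and 915.5 CPM in WT1, WT2 and WT3. KO3 lay above WT3, and the log2 fold change was -0.53 (SE 0.20, edgeR adjusted p = 0.329). Per length, the ratio of Car2 to Car1 FPKM was 5.56, 2.01 and 3.32 in KO1, KO2 and KO3, against 9.13, 10 and 6.22 in WT1, WT2 and WT3. The ratio did not overlap between groups, and it was formed after the values were seen, so no test is given for it.

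Sphk1, sphingosine kinase 1, which makes the lipid that red cells store and release, measured 5.66, 14.7 and 15.2 CPM in KO1, KO2 and KO3, against 5.13, 4.38 and 7.68 CPM in WT1, WT2 and WT3. Its KO mean was 2.06 times the WT mean with KO1 inside the WT range (log2 fold change 1.04, SE 0.39, edgeR adjusted p = 0.327). Blvrb, the biliverdin reductase of red cells, measured 22.8, 32.8 and 37.6 CPM in KO1, KO2 and KO3, against 22.1, 27.5 and 25.6 CPM in WT1, WT2 and WT3. Trib2, a pseudokinase of the Tribbles family, measured 12.4, 24.4 and 28.2 CPM in KO1, KO2 and KO3, against 20.0, 14.6 and 18.9 CPM in WT1, WT2 and WT3. In both genes KO2 and KO3 lay above every WT library, while KO1 was inside the WT range for Blvrb and below it for Trib2. Their log2 fold changes were 0.31 (SE 0.20) for Blvrb and 0.28 (SE 0.29) for Trib2. Tspan8, a tetraspanin, was at 0.661 to 2.14 CPM in KO and 0.719 to 2.84 CPM in WT libraries, with a log2 fold change of 0.04 (SE 0.72).

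The metallothioneins Mt1 and Mt2, which bind zinc and copper, are neighbouring genes. Mt1 measured 13.3, 27.5 and 10.6 CPM in KO1, KO2 and KO3, against 9.12, 7.14 and 7.46 CPM in WT1, WT2 and WT3. All KO libraries lay above all WT libraries, as in 8.86% of all genes tested, with KO2 far above the rest. The log2 fold change of Mt1 was 1.11 (SE 0.34, edgeR adjusted p = 0.306, DESeq2 adjusted p = 0.0691). Mt2 was much lower, at 0.294, 1.6 and 1.23 CPM in KO1, KO2 and KO3, against 0.287, 0.530 and 0.454 CPM in WT1, WT2 and WT3. These values come from 8 to 44 counts a library.

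No heme enzyme passed the test, and their log2 fold changes were small. Alas2, the erythroid form of the first enzyme, had 9, 1 and 14 counts in KO1, KO2 and KO3, against 14, 3 and 3 counts in WT1, WT2 and WT3. Its housekeeping counterpart Alas1, named here after its values were seen, measured 143.8, 359 and 118 CPM in KO1, KO2 and KO3, against 116.1, 126.2 and 161.4 CPM in WT1, WT2 and WT3. Alas1 transcripts thus far outnumbered those of Alas2, the groups overlapped, and KO2 stood alone above the rest (log2 fold change 0.62, SE 0.40). Alad, the second enzyme, measured 103.7, 99.8 and 95.1 CPM in KO1, KO2 and KO3, against 91.8, 82.2 and 97.5 CPM in WT1, WT2 and WT3. KO1 and KO2 lay above all WT libraries and KO3 did not, and the log2 fold change was 0.14 (SE 0.11).

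Uros closes the porphyrin ring and Urod trims it. Uros measured 27.1, 31.0 and 30.0 CPM in KO1, KO2 and KO3, against 23.6, 28.4 and 23.0 CPM in WT1, WT2 and WT3, with a log2 fold change of 0.23 (SE 0.16). Urod measured 101.3, 110.6 and 107.7 CPM in KO1, KO2 and KO3, against 114.4, 100.1 and 106.8 CPM in WT1, WT2 and WT3. The Urod groups overlapped throughout, and the sign of its log2 fold change (-0.01, SE 0.11) turned with the filter, with limma-voom and without KO1 or WT1. Cpox and Ppox, the mitochondrial oxidases, had log2 fold changes of -0.39 (SE 0.33) and -0.17 (SE 0.16). Cpox ran at 3.19 to 4.17 CPM in KO and 3.92 to 6.06 CPM in WT libraries, and Ppox at 41.2 to 50.3 CPM in KO and 47.1 to 63.8 CPM in WT libraries. Fech, ferrochelatase, measured 88.4, 95.1 and 86.3 CPM in KO1, KO2 and KO3, against 83.2, 59.3 and 77.8 CPM in WT1, WT2 and WT3. All KO values of Fech lay above all WT values, as in 8.86% of all genes tested, with KO3 and WT1 close. Its log2 fold change was 0.29 (SE 0.14, edgeR adjusted p = 0.392).

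Globin transcripts were scarce in every library, and 3 of the 4 copies were highest in WT1. The genes come in pairs of copies with near-identical coding sequence. The stretch around the 1 coding base at which each pair differs is shown because it limits what reads of the coding part can tell apart. Untranslated parts of the transcripts were not compared. The sequences are from GENCODE M21 transcripts, coding bases 397 to 438 of 444 for the beta pair on chromosome 7 and 361 to 402 of 429 for the alpha pair on chromosome 11, with the differing base in capitals.
Hbb-bs: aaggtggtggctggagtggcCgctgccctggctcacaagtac
Hbb-bt: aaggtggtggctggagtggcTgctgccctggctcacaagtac
Hba-a1: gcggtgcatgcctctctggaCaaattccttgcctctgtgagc
Hba-a2: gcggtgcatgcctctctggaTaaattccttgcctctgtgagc
Coding sequences were 99.8% identical within each pair. All 4 globins had counts that were not whole numbers in all 6 libraries, and the labels do not say how reads shared between copies were divided, so the level of a single copy is uncertain. The promoters differ more: the 250-base windows of Hbb-bs and Hbb-bt were 69.3% identical, and those of Hba-a1 and Hba-a2 97.6%. The beta globin windows are shown with matches to CCNCNCCC in capitals, a loose form of the CACCC box that KLF1 binds. They are chr7:103827929-103828178 on the minus strand for Hbb-bs and chr7:103813924-103814173 on the minus strand for Hbb-bt, in GRCm38.p6.
Hbb-bs: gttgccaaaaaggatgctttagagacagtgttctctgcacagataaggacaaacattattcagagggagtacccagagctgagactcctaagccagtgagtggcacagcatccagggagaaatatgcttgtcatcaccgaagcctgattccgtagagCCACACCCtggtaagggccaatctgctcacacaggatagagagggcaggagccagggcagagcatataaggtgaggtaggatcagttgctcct
Hbb-bt: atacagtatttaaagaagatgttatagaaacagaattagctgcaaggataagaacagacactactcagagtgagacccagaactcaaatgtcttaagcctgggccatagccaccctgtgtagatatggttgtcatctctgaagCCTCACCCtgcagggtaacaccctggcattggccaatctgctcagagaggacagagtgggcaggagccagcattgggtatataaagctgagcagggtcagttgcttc
Each holds 1 match, 93 bases before the start in Hbb-bs and 107 in Hbb-bt. Searched on both strands, the pattern stood in 45.9% of all 32851 windows.

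Summed over the 4 copies, globins measured 13.1, 9.43 and 20.6 CPM in KO1, KO2 and KO3, against 40.1, 20.2 and 19.8 CPM in WT1, WT2 and WT3. WT1 was highest by far, and KO3 lay above WT2 and WT3. Hba-a1, an adult alpha globin copy, measured 3.23, 2.07 and 6.85 CPM in KO1, KO2 and KO3, against 15.0, 4.07 and 3.26 CPM in WT1, WT2 and WT3. Hba-a2, the other alpha copy, measured 1.51, 0.761 and 1.81 CPM in KO1, KO2 and KO3, against 7.0, 1.7 and 2.27 CPM in WT1, WT2 and WT3. Their log2 fold changes were -0.88 (SE 0.62) and -1.42 (SE 0.62), with edgeR adjusted p of 0.546 and 0.361. Without WT1 the log2 fold change of Hba-a1 was 0.15, so its sign rested on that library. That of Hba-a2 stayed negative without WT1 but was smaller, at -0.54 (edgeR adjusted p = 0.748).

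Hbb-bs, an adult beta globin copy, measured 1.25, 1.67 and 3.48 CPM in KO1, KO2 and KO3, against 8.44, 2.48 and 0.871 CPM in WT1, WT2 and WT3. All KO values lay inside the WT range, and the log2 fold change was -0.88 (SE 0.73) with all libraries and 0.35 without WT1. Hbb-bt, the other beta copy, measured 7.09, 4.93 and 8.48 CPM in KO1, KO2 and KO3, against 9.73, 11.9 and 13.4 CPM in WT1, WT2 and WT3. It was the globin whose groups did not overlap, KO lying below WT as in 9.7% of all genes tested (log2 fold change -0.77, SE 0.27, edgeR adjusted p = 0.313). Of beta globin counts, Hbb-bt made up 85%, 74.7% and 70.9% in KO1, KO2 and KO3, against 53.6%, 82.8% and 93.9% in WT1, WT2 and WT3. Over 11 reticulocyte and red cell markers, 6 of which are among the genes described, the summed level was 50.3, 44.0 and 68.3 CPM in KO1, KO2 and KO3, against 83.7, 59.2 and 57.5 CPM in WT1, WT2 and WT3. Of these sums Bpgm alone gave 32.02, 23.38 and 30.6 CPM in KO1, KO2 and KO3, against 35.11, 29.77 and 27.79 CPM in WT1, WT2 and WT3. All 11 had counts in some library, Slc4a1 at 0 in KO2, WT1 and WT3, and the part of residual red cells in the globin values was not tested.

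**Figure D4:**
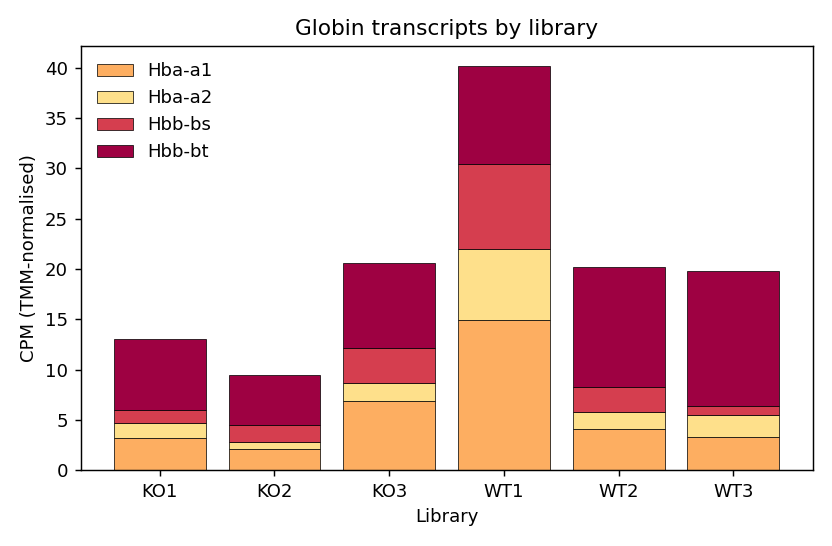
Stacked bars of TMM-normalised CPM for the 4 globin copies in each library, KO on the left and WT on the right. WT1 reaches 40.1 CPM and the other libraries 9.43 to 20.6 CPM, with KO3 at the height of WT2 and WT3.

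Per length, as deposited FPKM, the order of levels was much alike in the groups. Car2 led with 540 ± 155 FPKM in KO and 818 ± 190 FPKM in WT, then Nfe2 with 276 ± 38.8 FPKM in KO and 350 ± 22.7 FPKM in WT, and Car1 with 170 ± 71.2 FPKM in KO and 97.3 ± 12.5 FPKM in WT (SD, n = 3 each). Urod and Alad followed in both groups, at 84.0 ± 5.71 and 81.2 ± 1.58 FPKM in KO and 88.4 ± 5.23 and 78.6 ± 6.34 FPKM in WT, neighbours that did not differ beyond their spread, nor did Car1 and Urod in WT. Gata1, at 27.5 ± 3.80 FPKM in KO and 25.0 ± 3.31 FPKM in WT, and Klf1, at 26.4 ± 11.4 FPKM in KO and 19.2 ± 6.97 FPKM in WT, likewise overlapped each other. Epor lay lower, at 6.32 ± 2.87 FPKM in KO and 3.92 ± 1.18 FPKM in WT. Alas2 and Slc4a1 were the lowest, Alas2 at 0.163 FPKM in KO and 0.14 FPKM in WT and Slc4a1 at 0.0633 FPKM in KO and 0.0467 FPKM in WT on average.

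Further erythroid genes were read from 4 lists that exclude the genes above. Among 37 tested genes of heme and iron handling, 0 were called by edgeR, 23 had a positive and 14 a negative log2 fold change, and the median was 0.05. At an unadjusted p under 0.05 there were 8, against 13.4% of all genes tested. DESeq2 called 1 higher, where it called 0.897% of genes higher, and limma-voom called 0. Tmem14c, a mitochondrial porphyrin transporter, had a log2 fold change of 0.42 (SE 0.16), Glrx5, a glutaredoxin of iron-sulfur assembly, 0.85 (SE 0.32), and Tfr2, the second transferrin receptor, -0.26 (SE 0.10).

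Of 31 tested late erythroid genes, edgeR called 0, 13 were positive and 18 negative, with a median of -0.12. There were 5 at an unadjusted p under 0.05, against 13.4% of all genes tested. DESeq2 called Rhag higher, where it called 0.897% of genes higher, and limma-voom called 0. Rhag, the partner of Rh proteins in the membrane, measured 4.04, 18.02 and 14.1 CPM in KO1, KO2 and KO3, against 2.69, 2.90 and 5.56 CPM in WT1, WT2 and WT3. KO2 and KO3 lay above every WT library, and KO1 was inside the WT range. The log2 fold change of Rhag was 1.70 (SE 0.51), with an edgeR adjusted p of 0.298 and a DESeq2 adjusted p of 0.0423. Tspo2 (1.54, SE 0.61) and Sptb, which encodes beta spectrin (1.53, SE 0.65), had positive log2 fold changes at under 5 CPM in every library.

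Of 18 tested genes of early erythroid and shared megakaryocyte progenitors, edgeR called 0, 10 were positive and 8 negative, with a median of 0.06. At an unadjusted p under 0.05 there were 5, against 13.4% of all genes tested. DESeq2 called Csf2rb and Atp1b2 higher, where it called 0.897% of genes higher, and limma-voom called 0. Csf2rb, the common beta chain of the IL-3, IL-5 and GM-CSF receptors, measured 143.2, 157.5 and 95.8 CPM in KO1, KO2 and KO3, against 65.6, 68.2 and 94.0 CPM in WT1, WT2 and WT3. Atp1b2, a sodium pump subunit, measured 15.2, 33.2 and 28.9 CPM in KO1, KO2 and KO3, against 13.03, 5.76 and 11.4 CPM in WT1, WT2 and WT3. Il1rl1, the IL-33 receptor (log2 fold change 0.91, SE 0.28), and Mfsd2b, the sphingosine phosphate exporter of red cells (0.50, SE 0.19), followed by p. Of 24 other erythroid regulators, edgeR, DESeq2 and limma-voom called 0, with 9 positive, 15 negative and a median of -0.04. There were 5 at an unadjusted p under 0.05, against 13.4% of all genes tested. The smallest p values in that list were on the negative side. They belonged to Gfi1b, a repressor of erythroid and megakaryocyte cells (-0.41, SE 0.14), Jak2, the kinase of the erythropoietin receptor (-0.56, SE 0.20), Foxo3 (-0.41, SE 0.18) and Bach2 (-0.44, SE 0.20).

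Of the marker lists of other cells, that of mature T and natural killer cells was high in both KO2 and KO3. Its genes summed to 24.1, 80.7 and 81.7 CPM in KO1, KO2 and KO3, against 11, 18.5 and 18.3 CPM in WT1, WT2 and WT3, so KO2 and KO3 stood above KO1 as for Klf1 and Car1, and KO1 above the WT libraries. All 10 genes had counts in some library, and all 7 tested had a positive log2 fold change. Prf1 was at 0 in WT1 and WT2. Of the T cell markers, Cd3e had counts in WT3 alone (0.151 CPM) and Cd3d in KO2 alone (0.399 CPM). Cd3g was at 0 in WT libraries and at 0.184, 0.254 and 0.471 CPM in KO1, KO2 and KO3. Such Cd3 levels added little to the sums. The largest values in KO2 and KO3 were those of Il2rb (23.6 and 33.28 CPM) and Cd7 (17.91 and 14.9 CPM). Mast cell and basophil markers summed to 927, 1130 and 915 CPM in KO1, KO2 and KO3, against 910, 903 and 1000 CPM in WT1, WT2 and WT3, and 8 of the 10 tested were positive. LSK markers summed to 3390, 3290 and 4140 CPM in KO1, KO2 and KO3, against 4450, 4370 and 4010 CPM in WT1, WT2 and WT3, and 3 of 9 were positive. The part of such cells in the erythroid values was not tested.

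**Figure D5:**
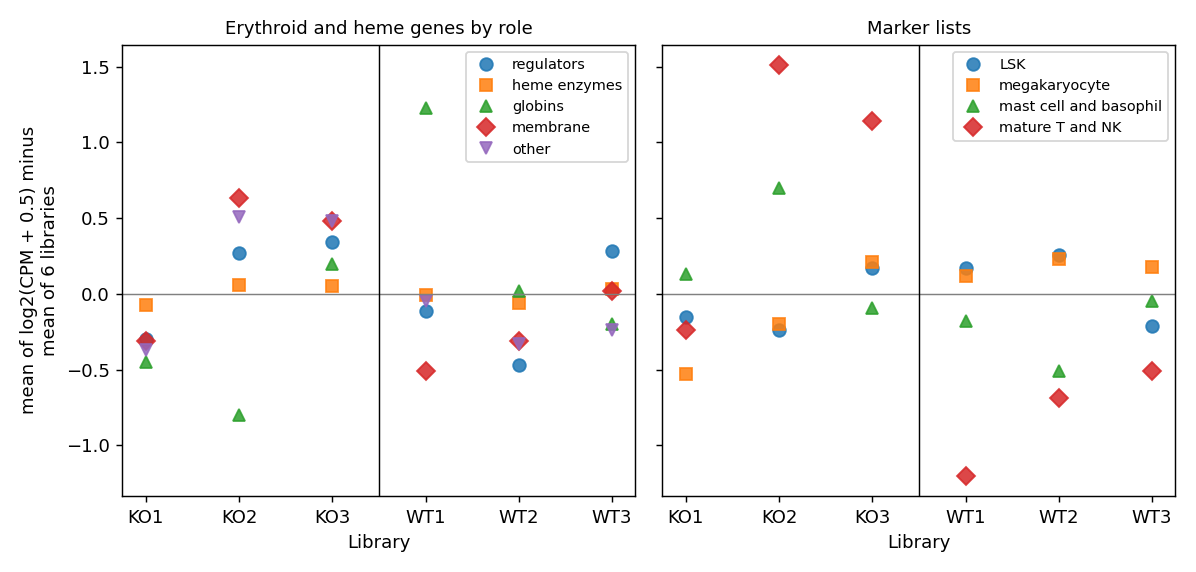
Mean of log2(CPM + 0.5) minus the 6-library mean, for each role group of erythroid and heme genes (left) and for 4 marker lists (right), with 1 symbol per list and library, KO before WT on the x axis. Membrane and progenitor genes stand at 0.48 to 0.63 in KO2 and KO3 and at -0.31 and -0.37 in KO1, and the T and natural killer list is likewise higher in KO2 and KO3 than in KO1.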

How the data were processed

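RNA-seq of 3 KO and 3 WT libraries was read from 1 table that pairs gene symbols with values. Per the submitters' processing notes, HISAT2 2.2.1, SAMtools 1.13, featureCounts 2.0.3 and DESeq2 were used, with GRCm39. The deposited counts are treated as estimated counts, since 19.6% to 20.9% of values per library are not whole numbers, and they were rounded here. The authors also deposited FPKM for each library, used for levels per length and in 1 alternative. The notes do not say how shared reads or strand were treated. Genes with enough counts (filterByExpr, minimum 10) were tested in R 4.3.3 with edgeR 4.0.16 (TMM, quasi-likelihood, Benjamini-Hochberg adjusted p of 0.05 over all genes). DESeq2 1.42.0 and limma 3.58.1 gave alternatives, with a pseudocount of 1 for FPKM. The procedure was tested on simulated data. All genes of the set are named. Per-library values are given mainly where a gene reached 1 CPM throughout a group, and the 4 genes of smallest p are named from each further list, except that some are not reported here. The genes and lists were chosen with earlier results of these data known. All libraries entered the main test.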

Additional observations from a re-analysis of the deposited data

How the results depend on the processing

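The count of genes called, 1, was 181 with DESeq2, and 1 to 44 when a library was left out (44 without KO3, 4 without KO1). Of the erythroid and heme genes, 0 were called in the main test, 2 with DESeq2 and 0 to 1 with a library left out. Their median log2 fold change was positive under every alternative run, at 0.13 to 0.33. Of 458 alternative values for single genes, 442 kept direction and side of the threshold, 4 passed it and 12 changed sign. Tspan8 was at 0 with upper-quartile factors and -0.299 to 0.967 with a library left out. Urod was at 0.01 with no filter, 0.014 with limma-voom and -0.053 to 0.043 with a library left out. Leaving out a library gave Zfpm1 -0.532 to 0.314, Hba-a1 -1.486 to 0.146 and Hbb-bs -1.426 to 0.348, positive without WT3 for Zfpm1 and without WT1 for the globins. The cause of these changes was not tested.

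The labels do not say whether replicate numbers pair the libraries. Deviations from the group mean of same-numbered KO and WT libraries correlated at 0.03, -0.04 and -0.12, and those of differently numbered ones at -0.07 to 0.11. Values so near 0 in groups of 3 cannot decide whether libraries were paired. With the replicate number as a block, 1 gene was called and 0 of the erythroid and heme genes. With 3 libraries a group, an exact two-sided permutation test cannot go below p = 0.1. Genes under about 1 CPM rest on few counts.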
